A study of Arabidopsis thaliana with 54 samples.

Results

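A set of 59 Arabidopsis genes, of 36632 counted, had fewer transcripts in plants with an earlier cold episode than in plants without one, before a cold treatment began. They were chosen from the readout itself. Each count was divided by the library total and multiplied by 1000000 (CPM), and a gene was kept where the highest of the 3 libraries of pre-treated plants at 0 h lay below the lowest of the 6 libraries of the other plants at 0 h, with a mean of at least 5 CPM in those 6. Up to 100 genes ranked by fold were allowed. Of 11377 genes at that level 59 met the rule (0.519%), so none was cut by rank, and 146 genes lay in the opposite order, higher in all 3 libraries of pre-treated plants.

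All plants were of the Col-0 accession, grown on soil, and each library held RNA of a pool of 5 samples of whole rosettes. C28PLT plants were moved to 4 °C for 3 days at an age of 28 days, returned to warm long days for 7 days, and then moved to 4 °C a second time (triggering). C35P plants were a developmental control, first moved to 4 °C at 35 days, and C28P plants were first moved to 4 °C at 28 days. Each was sampled before the move (0 h) and after 2, 4, 6, 12 and 24 h, in 3 independent experiments, which gave 54 libraries. At 0 h the C28PLT plants were older than the C35P plants by the days of the first cold. The light was 200 µmol quanta in the warm and 90 µmol quanta in the cold chamber, with a 16 h day, so time in the cold goes with time of day and with less light in all 3 conditions.

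Library totals ran between 23408399 and 34452480 counts. The libraries also differed in their correlation with transcript length, from -0.455 to 0.590. At 0 h it ran from -0.455 (C28P, experiment 3) to 0.260 (C28P, experiment 1), and its part in the choice of genes was not tested. The C28P library of experiment 1 at 0 h stood apart: PRR5, an evening clock gene, had 75.9 CPM there and at most 1.47 CPM in the other 8 libraries at 0 h. Leaving it out of the rule kept all 59 genes and added others, to 84. With a library of the other plants left out, members can be lost only through the minimum mean CPM, not through the order. That all 59 were kept is therefore no check on this library. Leaf genes fitted the label of rosettes, with 20 light-harvesting and Rubisco genes summing to between 145830 and 179990 CPM at 0 h.

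The choice of the 59 rested on scaling and on single libraries. With CPM on TMM-scaled library sizes, which correct for a few very abundant transcripts, 177 genes met the rule and 31 of the 59 were among them, XTH33, XTR6, PYK10, LDOX and FLA2 included and WRKY22, GAE1 and PHB4 not. The TMM factors at 0 h ran from 0.748 (C28P, experiment 3) to 1.096 (C35P, experiment 2). On plain CPM without the C28PLT library of experiment 2, 990 genes met the rule, and without the C35P library of experiment 3, 204 did. These 2 libraries set the limit most often: the C28PLT library was the highest of its 3 for 36 members, and the C35P library was the lowest of the 6 for 24 members.

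Only 7 of the 59 were on a gene list used here, and the roles that follow are background on single members. Xyloglucan endotransglucosylase/hydrolases (XTHs) cut and rejoin the xyloglucan chains that tether cellulose in the primary wall, and several XTH genes are known in Arabidopsis for fast transcript changes after touch, darkness or cold. PYK10 is the main β-glucosidase of ER bodies, defence compartments of Brassicaceae. Jacalin-related lectins and GDSL lipase-like proteins are known from complexes with PYK10. Other members belong to stress signalling (WRKY22, a factor of immune signalling), to transport (MATE and major facilitator carriers) and to mitochondria and plastids (PHB4, a prohibitin of the inner mitochondrial membrane, and MORF6, an organelle RNA editing factor).

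The 59 lay on all 5 chromosomes, with 13, 11, 14, 9 and 12 members on chromosomes 1 to 5, and no 2 were neighbours in the annotation. Their median transcript length was 1759 bases, against 1654 bases for all genes at that level, and their median GC content was 41.0%, against 41.3%. Of the members, 17 overlap another annotated gene. The strand setting of the counting is not given in the sources used here, so reads of such partners cannot be told apart. XTR6, JAL33, AT1G54010 and AT1G28600 also have close relatives in the genome, and their counts are uncertain to that extent.

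The upstream sequences of 4 members are shown, 2 of which fell and 2 of which rose in the cold in all 3 conditions, as described below. Other members did so without any of the motifs marked here, XTH33 and AT5G64150 among them, whereas the 4 sequences shown all hold matches. Each is the 250 bases before the annotated start in the RefSeq TAIR10.1 assembly, 5′ to 3′ on the gene's strand, at chr4:13128144-13128393 (+ strand) for XTR6, chr1:27441731-27441980 (+ strand) for AT1G72940, chr2:14846360-14846609 (- strand) for MORF6 and chr3:10076559-10076808 (+ strand) for PHB4. Capitals mark matches on either strand to the site II element (TGGGCN), the W box core (TTGACN) or the DRE core (CCGAC).
XTR6: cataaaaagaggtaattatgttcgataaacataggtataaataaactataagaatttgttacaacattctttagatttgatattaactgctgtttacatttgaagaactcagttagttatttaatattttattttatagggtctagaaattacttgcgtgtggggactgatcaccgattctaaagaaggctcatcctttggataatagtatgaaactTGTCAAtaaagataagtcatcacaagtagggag
AT1G72940: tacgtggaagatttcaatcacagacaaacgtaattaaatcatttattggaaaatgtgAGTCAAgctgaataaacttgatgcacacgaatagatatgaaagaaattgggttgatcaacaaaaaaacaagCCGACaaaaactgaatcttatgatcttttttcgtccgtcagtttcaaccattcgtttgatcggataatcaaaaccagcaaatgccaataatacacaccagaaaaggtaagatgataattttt
MORF6: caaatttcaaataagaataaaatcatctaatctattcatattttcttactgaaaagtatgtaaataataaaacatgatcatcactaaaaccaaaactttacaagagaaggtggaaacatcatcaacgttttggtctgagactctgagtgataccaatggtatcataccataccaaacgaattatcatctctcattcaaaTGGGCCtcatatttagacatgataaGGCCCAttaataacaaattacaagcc
PHB4: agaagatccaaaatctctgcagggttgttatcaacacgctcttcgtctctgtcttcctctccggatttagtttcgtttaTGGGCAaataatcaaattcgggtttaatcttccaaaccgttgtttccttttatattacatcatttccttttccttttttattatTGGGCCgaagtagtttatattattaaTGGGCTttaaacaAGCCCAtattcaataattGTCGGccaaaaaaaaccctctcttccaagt
The site II element, known from promoters of ribosomal, mitochondrial and cell cycle genes, stood in the windows of 4 of the 6 members that rose in all 3 conditions (AT4G31810, PTAC15, MORF6 and PHB4, 66.7%) and in 1 of the 17 that fell in all 3 (5.88%). The share was 25.4% over all members and 25.6% over 20719 tested genes with a window. The W box core, the target of WRKY factors, stood in 52.9% of the windows of members that fell, 33.3% of those that rose and 44.6% of all. The DRE core, bound by CBF factors, stood in 11.8%, 16.7% and 13.0%, and the G box (CACGTG) in 5.88%, 0% and 7.30%. The rapid stress response element (CGCGTT) stood in 2 members (3.39%, against 2.90% of all), and the telo box (AAACCCTA) and the evening element (AAAATATCT) in none, against 3.80% and 2.52% of all. The groups are small, the motifs were chosen with the members known, and a match is a string of letters, not a bound site.

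Before the cold, the members that differed most were XTH33 and XTR6, both XTH genes of the wall. The values at 0 h chose the genes and are a description with no test, and in pooled rosettes fewer cells of a type and less RNA per cell cannot be told apart. The C28PLT mean was between 3.32% and 87.5% of the mean of the other 6 libraries, with a median over members of 63.8%.

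XTH33, an XTH of the wall, had 0.342, 0.374 and 0.398 CPM in the C28PLT libraries of experiments 1, 2 and 3, against 30.3, 1.06 and 0.443 CPM in C35P and 9.68, 22.7 and 3.02 CPM in C28P. XTR6, another XTH of the touch-responsive kind, had 1.45, 0.815 and 1.34 CPM in C28PLT, against 51.7, 6.63 and 2.15 CPM in C35P and 13.025, 36.1 and 4.59 CPM in C28P. In both genes the C28PLT libraries lay close together and the other 6 were spread widely, with experiment 3 lowest in C35P and in C28P. XTH30 had 1.97, 1.77 and 1.66 CPM in C28PLT, against 12.6, 2.91 and 2.11 CPM in C35P and 2.80, 8.80 and 2.35 CPM in C28P. Over all members the highest of the 6 libraries was between 1.15 and 68.3 times the lowest, with a median of 1.699, and within C28PLT the same ratio was between 1.05 and 2.97, with a median of 1.29.

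Among stress genes, AT3G59080, an aspartyl protease, had 6.15, 11.6 and 9.05 CPM in C28PLT, against 49.5, 42.3 and 11.8 CPM in C35P and 24.9, 53.1 and 21.5 CPM in C28P. AT1G72940, a protein with the TIR domain of plant immune receptors, had 6.28, 4.96 and 6.30 CPM in C28PLT, against 16.2, 38.1 and 8.53 CPM in C35P and 16.4, 28.6 and 10.6 CPM in C28P. WRKY22 had 3.89, 4.93 and 4.71 CPM in C28PLT, against 18.249, 14.7 and 4.95 CPM in C35P and 10.4, 19.4 and 7.36 CPM in C28P. For WRKY22 the C35P library of experiment 3 lay just above the C28PLT libraries, and the other 5 lay further off.

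PYK10 and AT1G54010 spread less than these over the 6 other libraries and more within C28PLT, where the highest was 2.66 and 2.67 times the lowest. PYK10 had 5.30, 14.1 and 7.85 CPM in C28PLT, against 20.0, 26.7 and 14.5 CPM in C35P and 38.8, 20.0 and 25.8 CPM in C28P. AT1G54010, a GDSL lipase-like gene, had 4.91, 13.1 and 7.64 CPM in C28PLT, against 15.9, 34.9 and 14.7 CPM in C35P and 23.4, 29.2 and 16.5 CPM in C28P. Both were highest in experiment 2 among the C28PLT libraries. PYK10 is also abundant in roots, and the other 9 root markers summed to between 7.78 and 15.3 CPM in C28PLT, 11.0 and 17.957 CPM in C35P and 7.79 and 21.5 CPM in C28P at 0 h, with 5 to 7 of the 9 at 0 in each library.

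LDOX, the leucoanthocyanidin dioxygenase of anthocyanin synthesis, had 8.07, 17.5 and 13.2 CPM in C28PLT, against 20.6, 32.2 and 32.7 CPM in C35P and 20.8, 31.5 and 23.8 CPM in C28P. FLA2, a fasciclin-like arabinogalactan protein of the cell surface, had 120, 163 and 128 CPM in C28PLT, against 375, 200 and 165 CPM in C35P and 335, 383 and 188 CPM in C28P. GAE1, which makes the nucleotide sugar of pectin, had 357, 330 and 347 CPM in C28PLT, against 925, 658 and 368 CPM in C35P and 506, 952 and 536 CPM in C28P. PHB4 differed less and had 17.1, 18.207 and 16.974 CPM in C28PLT, against 20.1, 18.7 and 19.6 CPM in C35P and 29.5, 20.5 and 21.1 CPM in C28P.

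**Figure D1:**
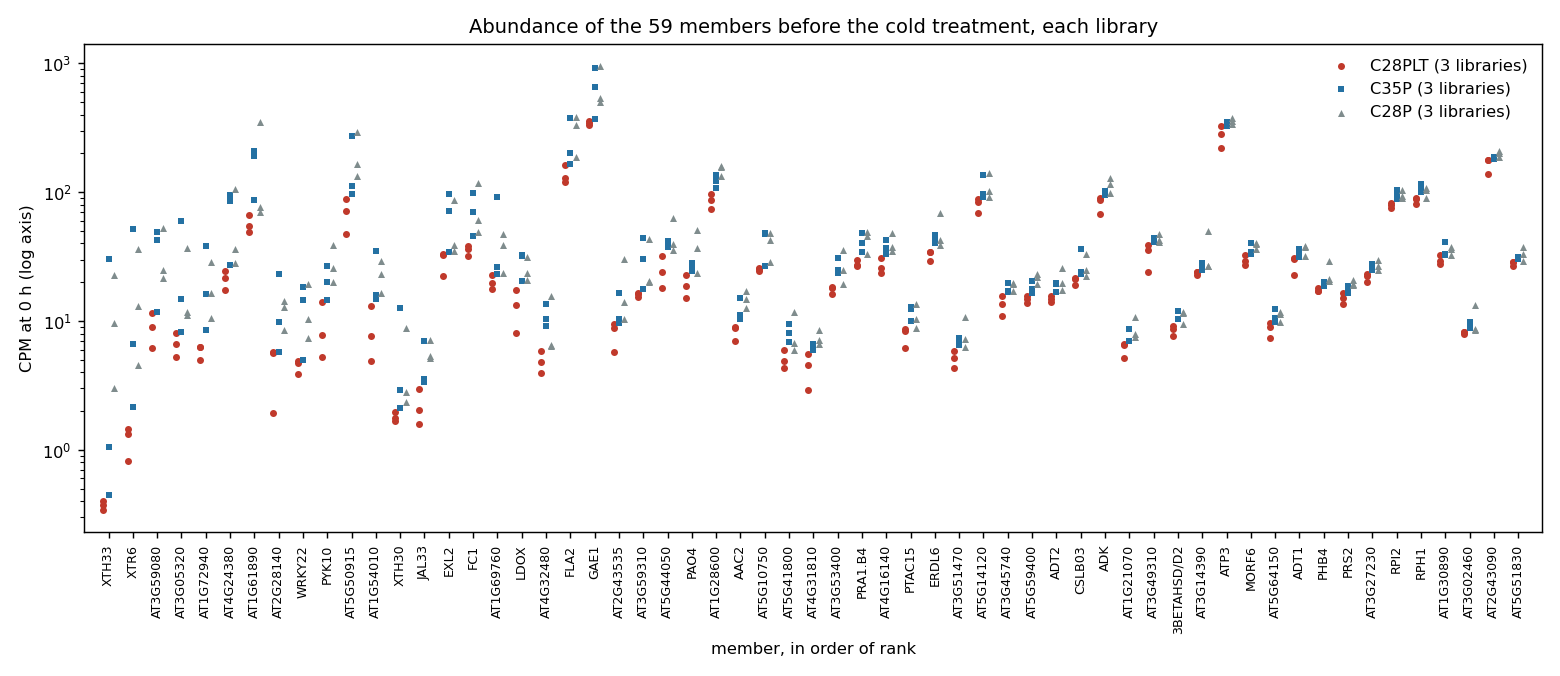
CPM at 0 h (log axis) of each of the 59 members in rank order; every point is 1 library, 3 each of C28PLT, C35P and C28P. The 3 C28PLT libraries lie below the 6 others by the rule, and the others spread most for the first genes, such as XTH33 (0.443 to 30.3 CPM).

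At the limits of the rule, AT1G30890, AT2G28140 and PRS2 were just inside, the last with at most 16.51 CPM in C28PLT and at least 16.55 CPM in the others. CER10, EXLA1 and SDH4 were just outside. EXLA1, an expansin-like wall gene, averaged 6.18 CPM in C28PLT and 100.6 CPM in the others, and missed by a highest C28PLT value of 7.031 CPM against a lowest other value of 7.026 CPM. By level XTH30, JAL33 and AT4G31810 were just inside, at means of 5.26, 5.27 and 6.79 CPM in the others, and RABA4C, AT3G54000 and TBL41 were just outside, at 4.95, 4.92 and 4.63 CPM.

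Some genes known for induction by touch that are not members also varied among the 0 h libraries. XTH22, also called TCH4, had 21.8, 18.241 and 11.4 CPM in C28PLT, against 841, 344 and 17.564 CPM in C35P and 226, 739 and 114 CPM in C28P. The 11 touch and calcium genes found that are not members summed to 591, 399 and 434 CPM in C28PLT, against 1891, 1182 and 438 CPM in C35P and 705, 1632 and 679 CPM in C28P. TCH3, a calmodulin-like gene, had 52.1, 20.3 and 28.0 CPM in C28PLT, against 93.8, 90.6 and 21.1 CPM in C35P and 50.2, 136.5 and 24.2 CPM in C28P, so in experiment 3 it was highest in C28PLT. The part of these genes in the values of the members was not tested. In the fit across all genes, 1 member was called at 0 h between C28PLT and C35P (XTR6, against 0.00483% of all genes lower) and 3 between C28PLT and C28P (XTH33, XTR6 and AT3G59080, against 0.125%). These contrasts use the libraries of the rule, and nothing is read from them.

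In the cold, the 2 h to 24 h libraries played no part in the choice, and here no member was called different between C28PLT and C35P. With edgeR's quasi-likelihood test (adjusted p under 0.05 over 20720 genes), 0 members were called at 2, 4, 6, 12 or 24 h, as were 0% of all genes. At an unadjusted p under 0.05 there were 1, 0, 0, 1 and 2 members at these times, against 0.849%, 0.888%, 0.55%, 0.994% and 3.23% of all genes, and DESeq2 called 0. The median log2 fold change of C28PLT over C35P over the members was -0.15, -0.11, -0.04, -0.23 and 0.12 at 2, 4, 6, 12 and 24 h, against 0.00, 0.05, 0.00, 0.00 and -0.02 over all genes. At 2 h, 48 of 59 members had a fold change below 0 (81.4%, against 50% of all genes), and at 24 h 20 did (33.9%, against 51.9%). The members spanned -2.13 to 1.04 at 24 h, so equal levels are not shown.

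Within each experiment, on plain CPM, the median difference at 2 h between C28PLT and C35P was -0.19, -0.14 and -0.16 on the log2 scale in experiments 1, 2 and 3, against 0.17, -0.06 and -0.22 over all genes. At 24 h it was -0.04, 0.00 and -0.24, against -0.39, 0.22 and -0.32 over all genes. In experiment 1 the members lay below all genes at 2 h and above them at 24 h, in experiment 2 below at both times, and in experiment 3 above at both.

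Averaged over 2 to 24 h, C28PLT over C35P again gave 0 calls, with 4 of 59 members at an unadjusted p under 0.05 (3 lower and 1 higher, against 6.66% of all genes), 0 by DESeq2 and a median of -0.09, against 0.01 over all genes. PYK10 had the lowest value, a log2 fold change of -0.76 (SE 0.23, 95% interval -1.22 to -0.30, edgeR adjusted p = 0.725). XTH33 had -0.54 (SE 0.39, interval -1.31 to 0.23, edgeR adjusted p = 0.746) and XTR6 -0.11 (SE 0.32, interval -0.73 to 0.51, edgeR adjusted p = 0.939). These intervals leave room for differences of either sign in the XTH genes, so equal levels are not shown. Between C35P and C28P, which differ in age at the first cold, 0 members were called at each cold time and over the mean by either tool. Over the mean, 8 of 59 members had an unadjusted p under 0.05, against 8.32% of all genes.

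**Figure D2:**
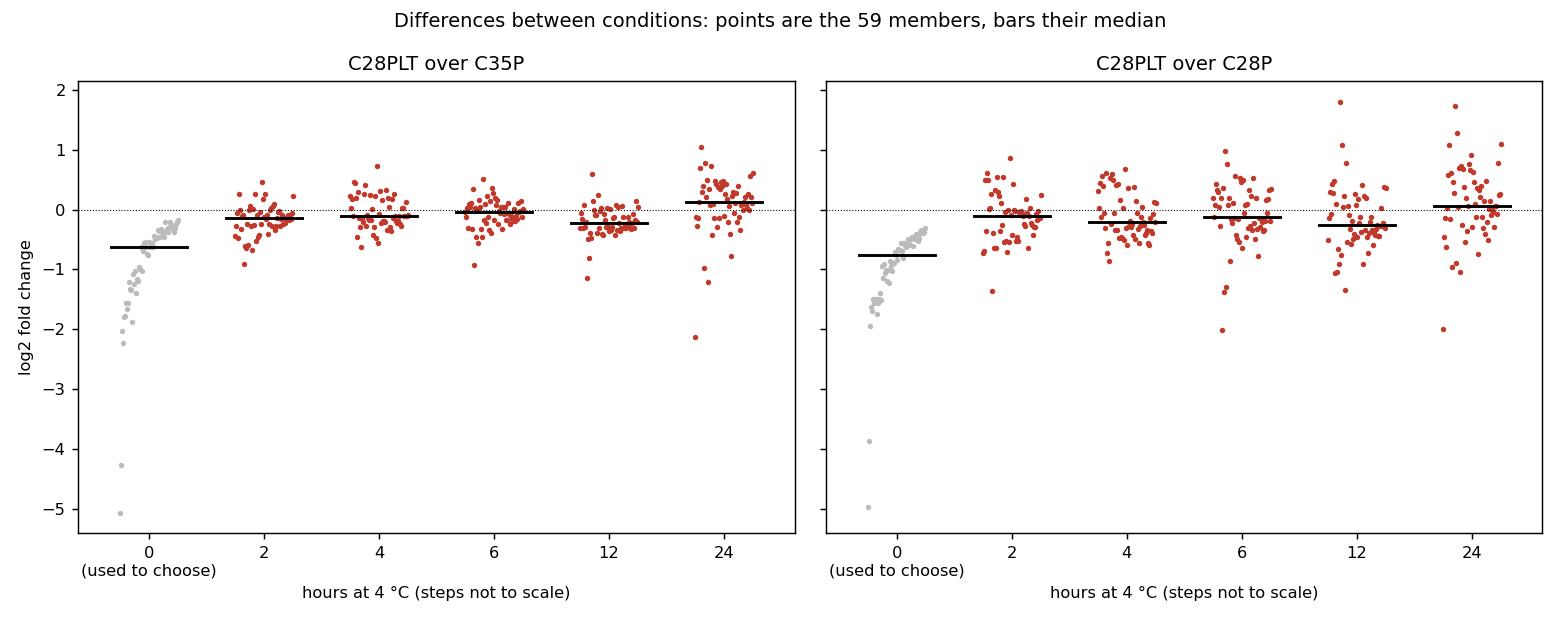
Log2 fold change of C28PLT over C35P (left) and over C28P (right) for the 59 members by hours of cold; points are members and bars their medians. The grey points at 0 h chose the genes, and from 2 h on the medians lie between -0.26 and 0.12.

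C28PLT and C28P were called different in some members when the 5 cold times were averaged. PYK10, LDOX and the lectin gene JAL33 were lower in C28PLT, and XTH30 was higher. Of the 59 members 11 were lower (18.6%, against 5.22% of all genes) and 4 higher (6.78%, against 6.63%), with 28 at an unadjusted p under 0.05, against 31.3% of all genes, and 16 called by DESeq2. At single times 0 were called by either tool, with 6, 3, 6, 8 and 8 of 59 at an unadjusted p under 0.05, against 4.24%, 7.42%, 5.42%, 5.04% and 12.8% of all genes. These 2 conditions differ in age as well as in the first cold, and the 2 cannot be told apart here. The fit took the 5 cold libraries of a condition in an experiment as independent. The SEs and p-values of all means over 2 to 24 h may thus be too small.

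PYK10 had 9.67, 11.7 and 6.06 CPM at 2 h in C28PLT, against 20.3, 5.97 and 45.0 CPM in C28P, and 6.03, 9.86 and 3.48 CPM at 24 h in C28PLT, against 12.964, 12.5 and 17.1 CPM in C28P. The groups overlapped at 2 h and not at 24 h. Its mean log2 fold change over the 5 times was -1.22 (SE 0.24, edgeR adjusted p = 0.0121). PYK10 was the one member of the 15 that passed with any single library left out. On plain CPM the C35P mean lay between those of C28PLT and C28P at each of the 5 cold times. In the fit, C35P and C28P were about equal at 24 h (log2 fold change of C35P over C28P 0.02, SE 0.52). Without experiment 1 or without experiment 3 PYK10 did not pass.

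JAL33 changed by -0.77 (SE 0.21, edgeR adjusted p = 0.0252) and AT1G54010 by -0.71 (SE 0.23, edgeR adjusted p = 0.0430). The call of AT1G54010 was lost with 20 of 30 single libraries left out, and that of JAL33 with 7. LDOX changed by -0.79 (SE 0.24, edgeR adjusted p = 0.0339). Of the 20 genes tested on the flavonoid and anthocyanin list, LDOX included, 10 were lower in C28PLT than in C28P and 1 higher. Their median was -0.51, against -0.02 over all genes, of which 1081 were lower and 1373 higher. Between C28PLT and C35P over the same mean, 0 of all tested genes were called with edgeR, those on this list included. The name PAP1 on this list was matched to AT2G27190, a purple acid phosphatase gene, and not to the anthocyanin MYB factor of that name. Of the 20 glucosinolate genes tested 0 were called between C28PLT and C28P by edgeR, with a median of -0.21.

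The other members that were lower in C28PLT were AT3G51470, a type 2C protein phosphatase (-0.59), AT3G14390, a pyridoxal-dependent decarboxylase (-0.55), AT4G31810 of the crotonase family (-0.48), the polyamine oxidase PAO4 (-0.45), the PRPP synthase PRS2 (-0.39), PHB4 (-0.36) and PTAC15 of the plastid nucleoid (-0.36). Higher were XTH30 (1.07, SE 0.32, edgeR adjusted p = 0.0326), AT5G10750 of unknown function (0.60), the pfkB-type sugar kinase AT5G51830 (0.43) and AT3G53400 (0.42). XTH30 was low throughout, with 2.31, 0.779 and 3.68 CPM at 24 h in C28PLT, against 1.12, 0.753 and 0.734 CPM in C28P. The call of each rested on which experiments were used: without experiment 1 or without experiment 3, 0 members passed, and without experiment 2, 29 did. Shares of all genes in runs with libraries left out are not given here, so a loss particular to the members is not shown. Of single libraries, leaving out the C28PLT library of experiment 3 at 12 h or at 24 h left 1 member, those at 2, 4 and 6 h 5, 3 and 4. Leaving out the C28P library of experiment 1 at 4, 6, 12 or 24 h left 4, 4, 3 and 3 members, and the C28P library of experiment 3 at 2 h or 6 h left 5 and 8.

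**Figure D3:**
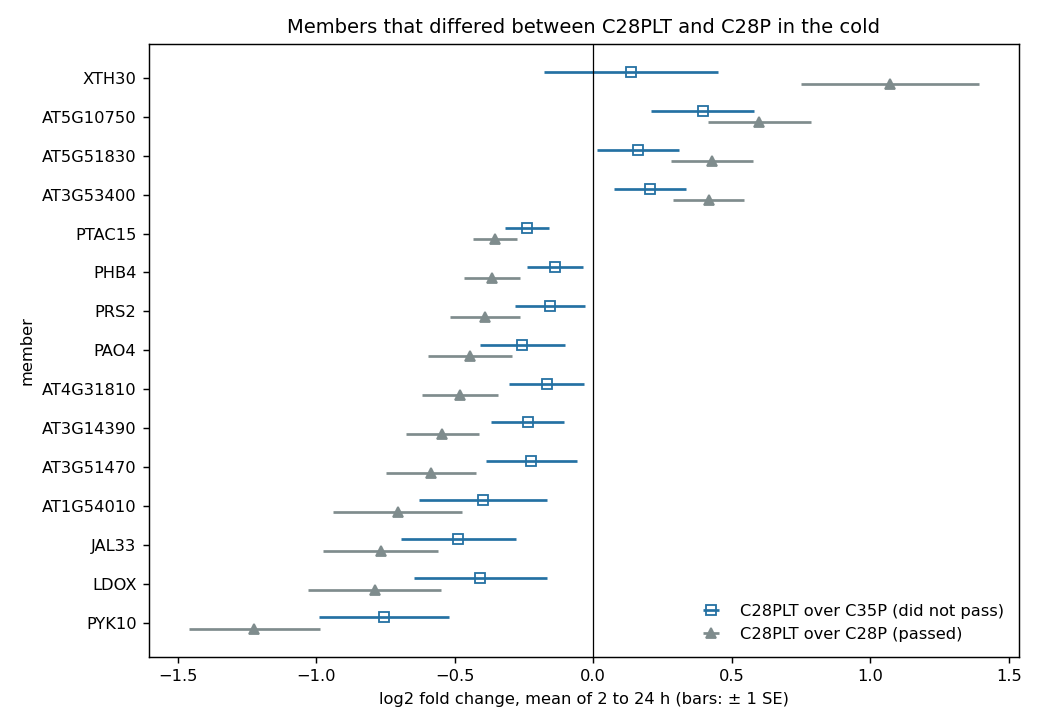
Log2 fold changes over the mean of 2 to 24 h, with bars of 1 SE, for the 15 members called between C28PLT and C28P (triangles), beside C28PLT over C35P for the same genes (squares, not called). The squares lie on the same side of 0 as the triangles and nearer to 0, from -0.76 for PYK10 to 0.39 for AT5G10750; both contrasts share the C28PLT libraries.

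During the cold 17 members, XTH33, XTR6 and FLA2 among them, fell in all 3 conditions, and 6, PHB4 and MORF6 among them, rose in all 3. Between 2 h and 24 h, 21 members fell and 10 rose in C28PLT (35.6% and 16.9%, against 10.3% and 12.6% of all genes). In C35P 25 fell and 7 rose (42.4% and 11.9%, against 9.31% and 9.98%), and in C28P 22 fell and 8 rose (37.3% and 13.6%, against 11.6% and 10.7%). The median log2 change of members was -0.47, -0.85 and -0.74 in C28PLT, C35P and C28P, against -0.01, 0.03 and -0.06 over all genes.

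The 17 that fell in all 3 conditions were 28.8% of members, against 6.07% of all genes, and the 6 that rose were 10.2%, against 6.76%. A further 19 were called in none (32.2%, against 68.1%). The members are more abundant than most tested genes, with a median of 27.3 CPM in the 6 libraries, against 6.24 CPM. The part of this level in the counts was not tested. No member fell in one condition and rose in another, and neither did any of the 20720 tested genes. These counts rested on the experiments used: without experiment 2, 5 members fell and 2 rose in all 3 conditions, and without experiment 3, 9 fell and 2 rose. Shares of all genes in those runs are not given here. The change from 2 h to 24 h was not called different between C28PLT and C35P for any member with edgeR (1 at an unadjusted p under 0.05, AT5G50915, against 1.02% of all genes, and 0 by DESeq2), with a median difference of 0.25, against -0.01 over all genes.

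**Figure D4:**
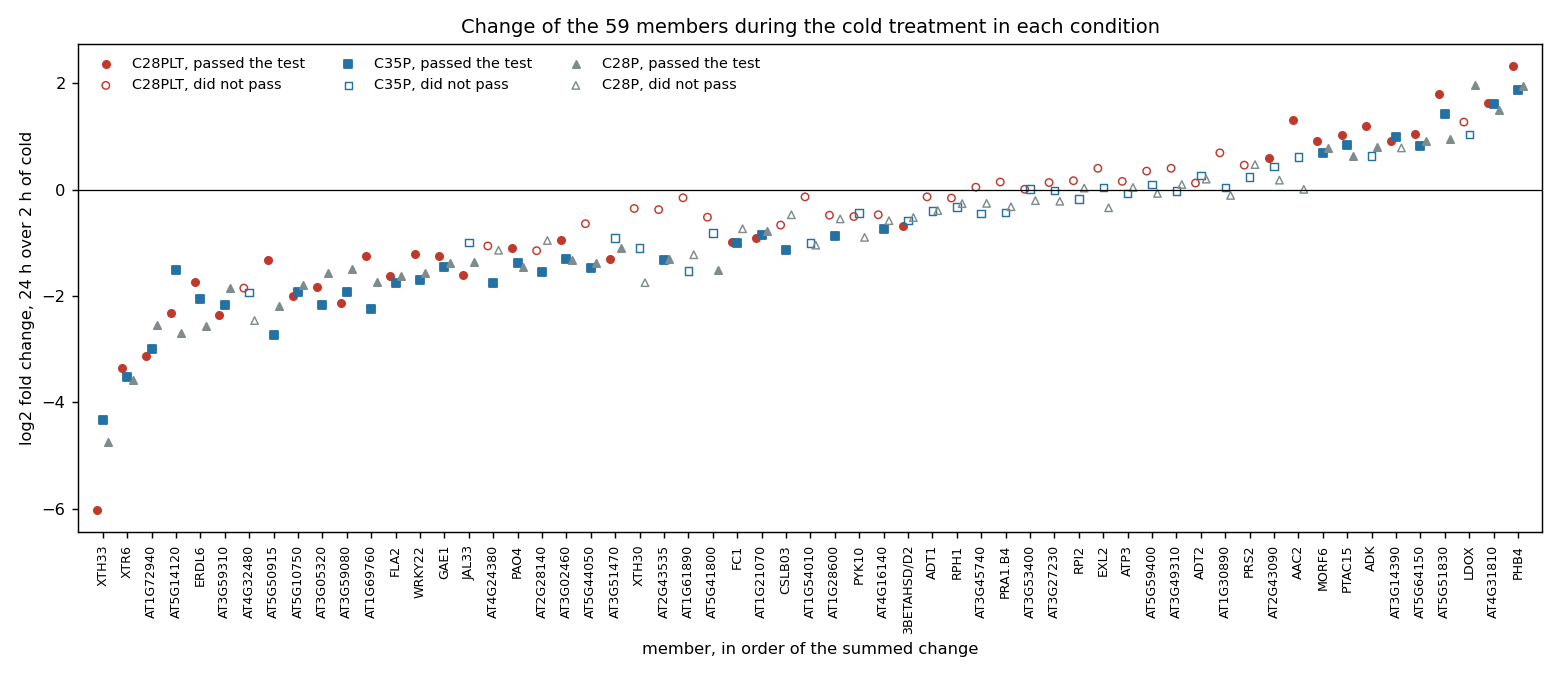
Log2 fold change of 24 h over 2 h of cold for each of the 59 members in C28PLT (circles), C35P (squares) and C28P (triangles), filled where the test was passed. XTH33 is lowest in all 3 (-6.02, -4.33 and -4.74) and PHB4 is among the highest (2.32, 1.88 and 1.94).

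XTH33 was the member that fell most. At 2 h it had 36.7, 53.7 and 7.03 CPM in C28PLT, against 64.2, 42.4 and 23.3 CPM in C35P and 66.2, 21.4 and 70.1 CPM in C28P, and the 3 groups overlapped. At 24 h it had 0.822, 0.407 and 0.201 CPM in C28PLT, against 5.53, 0.630 and 1.302 CPM in C35P and 4.66, 0.910 and 1.15 CPM in C28P. The fold change of 24 h over 2 h was -6.02 in C28PLT (SE 1.07, edgeR adjusted p = 4.99e-05), -4.33 in C35P (SE 0.95, edgeR adjusted p = 0.000933) and -4.74 in C28P (SE 0.97, edgeR adjusted p = 0.000360). The difference of the change between C28PLT and C35P was -1.69 (SE 1.28, interval -4.19 to 0.81). In C28PLT the mean was 0.371 CPM at 0 h and 32.5 CPM at 2 h, against 10.6 and 43.3 CPM in C35P and 11.8 and 52.6 CPM in C28P, where the 0 h values are those that chose the gene.

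XTR6 also fell in all 3, with a log2 change of -3.36 in C28PLT, -3.51 in C35P and -3.59 in C28P. Its means at 0 h and 2 h were 1.202 and 6.23 CPM in C28PLT, against 20.2 and 7.59 CPM in C35P and 17.9 and 10.071 CPM in C28P. FLA2 fell, with -1.63 in C28PLT, -1.75 in C35P and -1.63 in C28P, and GAE1 fell, with -1.25, -1.46 and -1.38 in the same order. AT1G21070, a nucleotide-sugar transporter, fell in all 3, CSLB03, a cellulose synthase-like gene, in C35P alone, and XTH30 in none. Of the 20 cell wall expansion genes tested, XTH33 and XTH30 included, 11 fell in C28PLT, 11 in C35P and 10 in C28P, and 2, 2 and 0 rose. Of the 13 genes tested on the touch and calcium list, XTR6 and the lectin gene JAL33 included, 6 fell in each condition and 0 rose.

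AT1G72940 fell in all 3, with a log2 change of -3.13 in C28PLT, -3.00 in C35P and -2.55 in C28P. Also falling in all 3 were AT3G59080, AT3G05320 of the O-fucosyltransferase family, WRKY22 and the bHLH factor AT5G50915. The call of WRKY22 in C28PLT was lost under 10 of 17 alternatives, among them DESeq2 size factors in edgeR, no filter, each experiment left out and 5 of 6 single libraries left out. In C28PLT the call of AT5G50915 was lost under 7 of the 17, that of AT3G05320 under 4 and that of AT3G59080 under 0. AT5G50915 had -1.33 in C28PLT (SE 0.44), -2.73 in C35P (SE 0.46) and -2.18 in C28P (SE 0.45). Of the 27 stress ERF, ZAT and WRKY factors tested, WRKY22 included, 11 fell in C28PLT, 10 in C35P and 10 in C28P, and 0 rose with edgeR in any. Over the mean of 2 to 24 h, 10 of these factors were higher in C28PLT than in C28P and 0 lower with edgeR. Their median was 0.87, and 1 of the 27 lay below 0. WRKY22 had 0.35 there (SE 0.20) and was not called. Of all tested genes, 1373 were higher and 1081 lower in C28PLT than in C28P, which differ in age as well. Between C28PLT and C35P over the same mean, 0 of all tested genes were called with edgeR, these factors included.

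Of the carriers, ERDL6, which exports glucose from the vacuole, fell, with -1.74 in C28PLT, -2.05 in C35P and -2.57 in C28P. It had 54.0, 52.4 and 32.7 CPM at 2 h in C28PLT, against 55.8, 63.4 and 47.9 CPM in C35P and 70.7, 61.7 and 58.4 CPM in C28P. At 24 h all 9 libraries lay between 10.6 and 16.4 CPM. AT5G14120, a major facilitator carrier, fell, with -2.33, -1.52 and -2.70 in C28PLT, C35P and C28P, and AT3G59310, of the solute carrier 35 family, with -2.35, -2.17 and -1.84. The MATE gene AT5G44050 fell in C35P and C28P, and the MATE gene AT1G61890 was called in none.

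The 6 members that rose in all 3 conditions were PHB4, AT4G31810, PTAC15, MORF6, AT5G51830 and AT5G64150. PHB4 had 15.9, 18.9 and 16.3 CPM at 2 h in C28PLT, against 21.2, 21.4 and 18.9 CPM in C35P and 26.9, 21.4 and 20.2 CPM in C28P. At 24 h it had 89.5, 97.9 and 61.8 CPM in C28PLT, against 100.0, 80.2 and 65.4 CPM in C35P and 119, 96.4 and 84.7 CPM in C28P. Every library at 24 h lay above every library at 2 h, and the log2 change was 2.32 in C28PLT, 1.88 in C35P and 1.94 in C28P (SE 0.23 each). AT4G31810 rose by 1.62, 1.61 and 1.49 in C28PLT, C35P and C28P, and PTAC15 by 1.03, 0.83 and 0.63. MORF6 rose by 0.90, 0.69 and 0.79, and AT5G51830 by 1.80, 1.41 and 0.95, in the same order. AT5G64150, an RNA methyltransferase, also rose in all 3, but it overlaps genes with up to 10790 counts in a library, so its reads are uncertain.

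AAC2, the mitochondrial ADP/ATP carrier, rose in C28PLT (1.31, SE 0.31) and was not called in C35P (0.61, SE 0.31) or C28P (0.00, SE 0.30). The difference between C28PLT and C35P was not called. ATP3, the γ subunit of the mitochondrial ATP synthase, and the arogenate dehydratases ADT1 and ADT2, which make phenylalanine, were called in none. LDOX rose in C28P (1.96, SE 0.55) and had 1.27 (SE 0.54) in C28PLT and 1.03 (SE 0.54) in C35P, which did not pass. Of the 20 genes on the flavonoid and anthocyanin list, 10 rose in C28PLT, 9 in C35P and 13 in C28P, and 0 fell with edgeR in any.

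**Figure D5:**
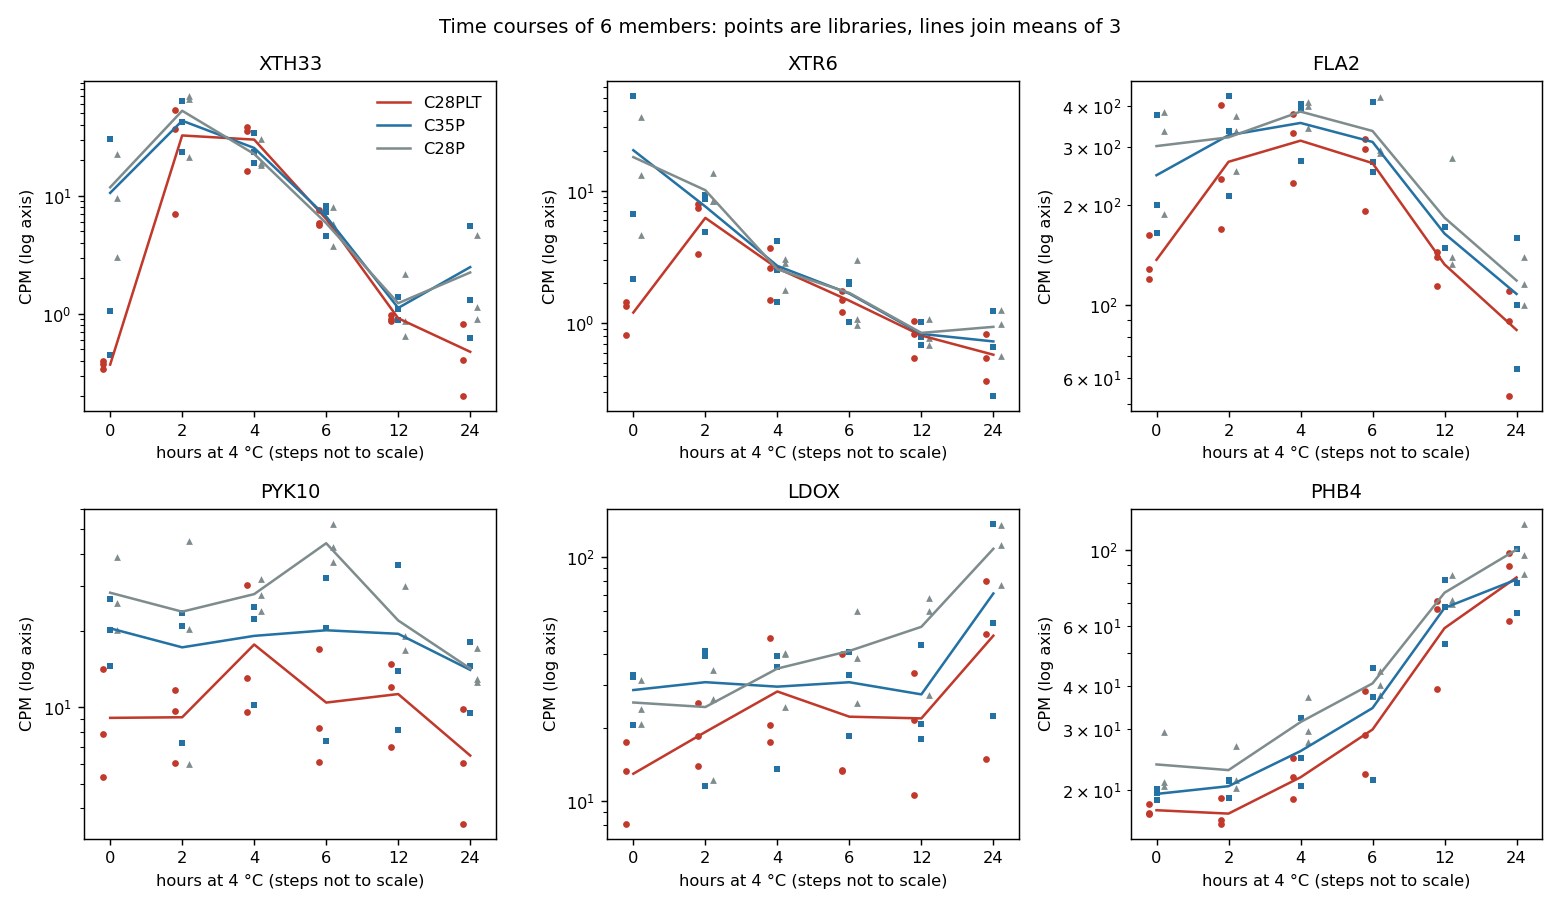
CPM (log axis) of 6 members by hours of cold; points are libraries and lines join the means of 3 libraries of C28PLT, C35P and C28P. The 0 h values chose the genes. FLA2 falls late, PYK10 lies lowest in C28PLT, and LDOX and PHB4 are highest at 24 h.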

How the data were processed

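RNA-seq read counts per gene were deposited by the authors as whole numbers in 1 table of 36632 genes and 54 libraries. Per the submitters' processing notes, Trimmomatic, STAR 2.7.9a, DESeq2 and the TAIR10 genome were used; the sources used here do not name the counting tool or its strand setting. Genes were named and their sequences read from the RefSeq TAIR10.1 annotation.

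From the deposited counts, CPM on plain library totals gave the members. Tests used edgeR 4.0.16 in R 4.3.3 (quasi-likelihood, TMM scaling, filterByExpr with a minimum count of 10, 20720 genes, 18 groups, 36 residual degrees of freedom, Benjamini-Hochberg adjusted p under 0.05 over all genes). DESeq2 1.42.0, other scaling, no filter, fits to the compared groups alone, length and GC offsets, the replicate block and left-out libraries were alternatives. Leaving out single libraries of the rule and of the contrasts with C28P was added after seeing the data.

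Replicates are independent experiments per the labels, so their number pairs libraries across conditions. Deviations from the group means of same-numbered libraries had a median correlation of 0.32 between C35P and C28P, 0.00494 between C28PLT and C35P and -0.03 between C28PLT and C28P. The members and gene lists were chosen with earlier results of these data known. Genes named are the 15 first by rank, members on a list, up to 10 per direction called between conditions, up to 8 per direction with the largest called change from 2 to 24 h, 3 on either side of a limit and the 5 most abundant; others were named after their values were seen.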

Additional observations from a re-analysis of the deposited data

How the results depend on the processing

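No member was called between C28PLT and C35P in the cold, between C35P and C28P over the mean of 2 to 24 h, or in the difference of the 2 h to 24 h change, under any alternative run, and no called member of the other comparisons changed sign. For C28PLT over C28P, where 15 members were called, 8 were without the filter on low counts and between 0 and 29 with libraries left out; of the 15, 0 passed under every alternative. With experiment as a replicate block 17 were called, and 22 with the block and the length and GC offset; the block moved no other count by over 1.5 times (31, 35 and 32 for the 2 h to 24 h change in C28PLT, C35P and C28P). For that change, counts with libraries left out lay between 17 and 28 in C28PLT, 17 and 28 in C35P and 19 and 27 in C28P, and 13, 13 and 16 members passed under every alternative; with the compared groups alone C35P gave 21. Members falling in all 3 conditions were 5 to 15, and rising ones 2 to 4, with an experiment left out, and 11 and 2 with the compared groups alone. The cause was not tested. Shares of all genes under these alternatives are not given here, so the counts describe the members alone. Within its limit of 100 ranks the rule gave between 60 and 100 genes with a library left out, and 100 on TMM-scaled CPM, 29 of them among the 59. Without the C35P library of experiment 3, the C28PLT library of experiment 2 or that of experiment 1, the first 100 held 13, 19 and 33 of the 59, and without any other library at 0 h at least 56. Over the 31 members that met the rule on both scales, 14 fell and 2 rose between 2 h and 24 h in C28PLT, 14 and 2 in C35P and 13 and 3 in C28P, and 8 were lower and 2 higher in C28PLT than in C28P. With 3 libraries a group, the median SE over members of the log2 fold change of C28PLT over C35P at 2 h was 0.31. Differences well above that size could be missed at single times: the lowest value over members at 24 h, -2.13, was not called.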
